A study of Homo sapiens with 24 samples.

Results

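The genes described here are 9 serine/arginine-rich splicing factors, SRSF1, SRSF2, SRSF3, SRSF4, SRSF5, SRSF6, SRSF7, SRSF10 and SRSF11, together with the kinase CLK1, 10 genes of the 58884 measured. They were chosen by name, with earlier results of these data known, and each name was found once in both expression tables. RNA-seq had been done on 10 libraries of HEK293T cells, a human embryonic kidney line. Batch 1 held 2 libraries of untreated wild-type cells (WT) and 2 of untreated SETD2 knockout cells (KO), in which both SETD2 alleles are disrupted. Batch 2 held 2 further KO libraries, 2 of KO cells rescued with full-length SETD2 (SETD2 FL) and 2 of KO cells rescued with the C-terminal segment of SETD2, residues 1404 to 2564 (SETD2 C), which lacks the N-terminal region. The sample labels call this rescue N3, and it was taken to be the SETD2 C construct that the study describes, a match that the labels do not state. All batch 2 cells thus carry the knockout. The constructs were tagged, driven by a CMV promoter and transiently transfected, and RNA was taken 72 h after transfection. No library of KO cells transfected with an empty vector was analysed here, so an effect of transfection and an effect of a construct cannot be told apart where a rescue is set against KO, whereas SETD2 C and SETD2 FL were both transfected. The labels do not say that replicates came from separate cultures, so the p-values measure only the spread between these samples, which may be technical.

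SR proteins bind exonic sequences through RNA recognition motifs and recruit the spliceosome to nearby splice sites through a domain rich in arginine and serine. CLK1 is a nuclear kinase that phosphorylates this domain, which releases SR proteins from nuclear speckles, while the SRPK kinases phosphorylate it in the cytoplasm so that the proteins can be imported. The family limits its own amount by splicing: many SR genes contain a poison exon, whose inclusion brings a premature stop codon and leads to nonsense-mediated decay (NMD), and CLK1 RNA is spliced to a skipped form that encodes no kinase domain, while other CLK1 RNAs retain introns and stay in the nucleus. SETD2 trimethylates lysine 36 of histone H3 over the bodies of transcribed genes, a mark tied to the choice of exons.

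The annotation of the 10 genes lists isoforms of these kinds, and it also shows what the measurement cannot separate. In GENCODE 44, each of the 10 has at least 1 isoform annotated as a target of NMD, against 39% of 20046 protein-coding genes, and 9 of 10 have a retained-intron isoform, against 48.2%. The shares over all genes were not matched for the number of annotated isoforms per gene. CLK1 (chr2:200853009-200864691, minus strand, GRCh38) has 14 isoforms, of which 3 are protein-coding, 2 are NMD targets and 8 retain an intron. SRSF7 (chr2:38743599-38751494, minus strand) has 6 NMD isoforms, SRSF11 (chr1:70205682-70253052, plus strand) has 4, and SRSF3 (chr6:36594353-36605600, plus strand) has 2. The values analysed are sums over all isoforms of a gene, so a productive RNA and a poison or intron-retaining RNA of the same gene cannot be told apart in them.

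For 5 of the 10 genes, SRSF3, SRSF4, SRSF6, SRSF7 and SRSF11, at least 1 NMD isoform has an internal exon that overlaps no exon of a protein-coding isoform and ends the reading frame. The start of 1 such exon is shown for each of the 3 genes among the 5 whose RNA level differed in SETD2 C cells, up to the in-frame stop codon, which is in capitals. The exons belong to the isoforms SRSF3-203 (exon 4 of 7, 456 bases, shown from chr6:36599821-36599854, plus strand), SRSF7-204 (exon 4 of 9, 449 bases, shown from chr2:38749319-38749346, minus strand) and SRSF11-217 (exon 4 of 16, 62 bases, shown from chr1:70230557-70230615, plus strand), in GRCh38.
SRSF3 poison exon: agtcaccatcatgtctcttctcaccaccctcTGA
SRSF7 poison exon: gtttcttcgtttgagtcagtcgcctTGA
SRSF11 poison exon: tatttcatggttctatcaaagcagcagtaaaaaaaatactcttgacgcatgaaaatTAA
The stop lies within the first 34 bases of the SRSF3 exon and within the first 28 bases of the SRSF7 exon.

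In CLK1 the arrangement is the opposite one: an exon must be included to keep the frame. Exon 4 of the coding CLK1 transcript (91 bases, chr2:200860125-200860215, minus strand, GRCh38) is absent from the NMD isoform CLK1-204. Its length is not a multiple of 3, and without it the next exon (chr2:200859726-200859746 up to the stop) is read in another frame and reaches the stop codon shown in capitals after 21 bases. The other NMD isoform, CLK1-202, lacks exon 10 (83 bases) and reaches a stop codon after 11 bases of its next exon, which is not shown. Exon 4 and the stretch read after its skip are given because CLK1 is the gene of the set whose level differed most in SETD2 C cells.
CLK1 exon 4: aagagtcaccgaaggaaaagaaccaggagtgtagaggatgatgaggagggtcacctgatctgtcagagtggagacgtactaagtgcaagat
CLK1 exon after the skip: atgaaattgttgatacttTAG

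The expression unit is TPM, a share of all transcripts in a library that is corrected for transcript length and sums to the same total in each library. Thus levels of different genes can be compared within a library. In WT cells of batch 1, SRSF11 was the highest of the 10 at 386 and 472 TPM. SRSF3 (309 and 345), SRSF5 (278 and 317) and SRSF1 (266 and 328) followed, and their libraries overlapped one another. The lowest were SRSF6, at 62.9 and 79.8 TPM, and CLK1, at 33.1 and 35.0 TPM. In between lay SRSF7, at 203 and 248 TPM, SRSF2, at 198 and 224, and SRSF4, at 156 and 203, each overlapping its neighbour, and SRSF10, at 116 and 149 TPM, below all libraries of SRSF4. The kinase was thus the least abundant RNA of the set in WT cells, and the SR genes outside SRSF6 were all above 100 TPM.

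In KO cells of batch 2 the order differed in part, and the batches were made as separate tables, so they are set side by side only. SRSF5 (278 and 315 TPM), SRSF3 (281 and 289) and SRSF11 (262 and 271) were highest, with SRSF5 and SRSF3 overlapping. SRSF2 (222 and 228), SRSF7 (205 and 212), SRSF1 (164 and 188), SRSF4 (128 and 129) and SRSF10 (94.9 and 97.1) followed without overlap between neighbours. CLK1 was at 48.2 and 57.7 TPM and SRSF6 was lowest at 40.2 and 42.5 TPM. The 9 SRSF genes summed to between 1684 and 2036 TPM in the 6 libraries of batch 2 and to between 1974 and 2443 TPM in the 4 of batch 1, that is, 0.168% to 0.244% of all TPM in a library.

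**Figure D1:**
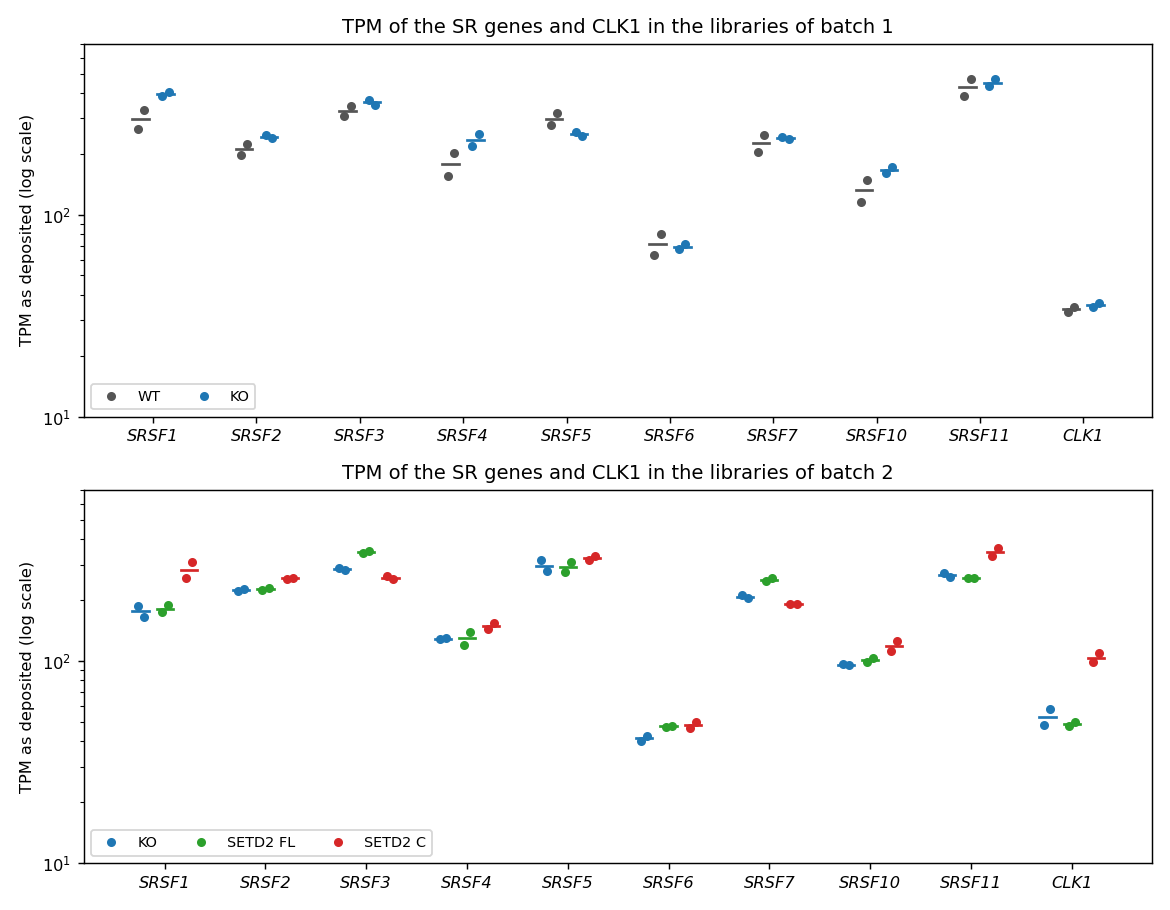
TPM of the 10 genes in each library, on a log axis, with 1 point per library and a bar at the mean of each group, batch 1 and batch 2 shown separately. CLK1 lies between 98.2 and 109 TPM in SETD2 C cells and at or below 57.7 TPM in the other libraries of batch 2.

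Several facts about the libraries bear on all comparisons. SETD2 itself was at 12.6 and 14.8 TPM in WT and at 16.2 and 16.3 TPM in KO of batch 1, so its RNA was not lower in the knockout, and a gene-level TPM does not show whether disrupted alleles make protein. The paper reports from western blots that the KO cells lack the histone mark that SETD2 makes. In batch 2 it was at 11.99 and 12.2 TPM in KO, 439 and 422 in SETD2 FL and 1329 and 1264 in SETD2 C, and RNA of both constructs was present. For SETD2 C against SETD2 FL, the log2 fold change of SETD2 RNA was 1.46, a fold of 2.75 (adjusted p = 7.06e-06 by limma). The paper, by contrast, reports no significant difference in mRNA level between these constructs in its RNA-seq data. How the length of the shorter SETD2 C construct entered its TPM was not tested, so the levels of the constructs may not be on the same footing. The part of this RNA difference in the comparisons of SETD2 C with SETD2 FL was not tested either. Mitochondrial genes took 23.2% and 14.1% of TPM in WT, 11.99% and 12.4% in KO of batch 1, 6.23% and 7.04% in KO of batch 2, 10.95% and 7.79% in SETD2 FL and 2.93% and 3.37% in SETD2 C. The SETD2 C libraries also had the most genes above 0, 27104 and 26139, against 24306 to 25440 in the other libraries of batch 2. The part of these differences in the results below was not tested beyond the rescaling given with the processing. HEK293T markers were present, with VIM at 444 to 926 TPM and NEFM at 111 to 341, although PAX2 was at 0.99 to 2.21. The 6 markers summed to 1425 and 1494 TPM in SETD2 C, 1053 and 1057 in KO and 896 and 1015 in SETD2 FL, and 3 of the 6 rose in SETD2 C against KO, 2 of them by 2-fold or more. In batch 1 they summed to 714 and 832 TPM in WT and 971 and 1014 in KO. The 3 blood markers summed to at most 0.08 TPM in any library. Fibroblast markers (COL1A1, LUM and DCN) summed to 12.1 and 14.3 TPM in SETD2 C against 7.23 and 7.31 in KO and 7.75 and 9.97 in SETD2 FL, with DCN at most at 0.43, and to 6.97 and 7.83 TPM in WT and 10.5 and 10.7 in KO of batch 1. Hepatocyte markers summed to 1.12 and 1.61 TPM in SETD2 C against 0.35 to 0.67 in the others of batch 2, and to 0.19 TPM in both WT libraries and 0.41 and 0.45 in KO of batch 1. In a bulk sample, a change in the cells present and a change in RNA per cell cannot be told apart.

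Loss of SETD2 was examined first, by setting KO against WT in batch 1. Of the 10 genes, 1 fell in KO, SRSF5, an SR protein that activates splicing at exonic enhancers. By limma 0 rose, and 3 were higher at an unadjusted p of 0.05 or less (SRSF1, SRSF4 and SRSF10). The share of all genes at that unadjusted threshold was not computed. The level of SRSF5 was 278 and 317 TPM in WT and 255 and 246 TPM in KO, so the groups did not overlap. After scaling of the libraries to a common median ratio, the log2 fold change was -0.38 ± 0.071 (SE, 2 libraries a group), with a 95% interval from -0.55 to -0.21 and an adjusted p of 0.040 by limma, Benjamini-Hochberg over 14746 genes. That count of 1 lower stands against 3.17% of all genes lower and 1.32% higher in this comparison, and 0 of the 10 changed by 2-fold or more, against 1.36%, nor did any at an unadjusted p of 0.05 or less in this or any later comparison. The call on SRSF5 was lost in 3 of the 4 fits that left out 1 library, with adjusted p-values of 0.0828 without WT replicate 1, 0.174 without KO replicate 1 and 0.262 without KO replicate 2, and it was lost without scaling as well (log2 fold change -0.24, adjusted p = 0.346 by limma).

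The other SR genes gave values in both directions. SRSF1, the founding member of the family and a regulator of many alternative exons, was at 266 and 328 TPM in WT and at 388 and 406 TPM in KO. Its groups did not overlap, yet the log2 fold change of 0.30 (95% interval 0.11 to 0.48) had an adjusted p of 0.0815 by limma and was past the threshold only where the libraries were not scaled (adjusted p = 0.0477). SRSF4 and SRSF10, the latter a repressor of splicing when dephosphorylated, had log2 fold changes of 0.27 and 0.21 with adjusted p-values of 0.154 and 0.179 by limma. CLK1 was at 33.1 and 35.0 TPM in WT and at 34.9 and 36.4 in KO. The groups overlapped, and its log2 fold change was -0.06 with a 95% interval from -0.27 to 0.14, so the data allow a change of up to 1.10-fold up or to 0.831 of the WT level. SRSF2, SRSF3, SRSF6, SRSF7 and SRSF11 had log2 fold changes between -0.16 and 0.08, with adjusted p-values of 0.254 or more by limma. The median over the 10 genes was -0.01, beside -0.01 over all genes.

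Rescue with full-length SETD2 was then set against KO in batch 2. None of the 10 genes passed the adjusted test by limma, and 3 had an unadjusted p of 0.05 or less, all higher: SRSF3, SRSF6 and SRSF7. The share of all genes at that unadjusted threshold was not computed. The count of 0 past the adjusted test stands beside 0.176% of 15933 genes higher, 0.0314% lower and 0.0816% at 2-fold or more. Very few genes of any kind thus passed. SRSF3, the smallest SR protein and a regulator of both splicing and RNA export, was at 289 and 281 TPM in KO and at 344 and 350 in SETD2 FL. SRSF7, its close paralogue with a zinc knuckle, was at 212 and 205 TPM in KO and at 247 and 258 in SETD2 FL. Neither gene's groups overlapped. The log2 fold changes were 0.26 for SRSF3 (95% interval 0.15 to 0.37) and 0.26 for SRSF7 (0.15 to 0.36), with adjusted p-values of 0.0998 and 0.0977 by limma. With TPM recomputed after mitochondrial genes and SETD2 were taken out, they were 0.33 and 0.32, each with an adjusted p of 0.0483. CLK1, at 48.2 and 57.7 TPM in KO and at 47.9 and 50.05 in SETD2 FL, overlapped between the groups and had a log2 fold change of -0.13 (95% interval -0.34 to 0.08). SRSF1, SRSF2, SRSF4, SRSF5, SRSF10 and SRSF11 had log2 fold changes between -0.07 and 0.06, and SRSF6, at 40.2 and 42.5 TPM in KO and 47.0 and 47.8 in SETD2 FL, had a log2 fold change of 0.17 with an adjusted p of 0.249 by limma.

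Rescue with SETD2 C gave a different picture. Relative to KO, 3 of the 10 genes rose (CLK1, SRSF1 and SRSF11), 2 fell (SRSF3 and SRSF7) and 5 did not pass the test. Since 21.1% of all genes rose and 15.1% fell in this comparison, 3 and 2 of 10 are shares near those of the genome. The log2 fold change of SRSF1 was exceeded by 13.8% of all genes tested and that of SRSF11 by 31.1%. Those of SRSF3 and SRSF7 were exceeded by 86.9% and 85.0%. None of the 10 reached 2-fold, which 4.06% of genes did. The median log2 fold change of the 10 was 0.07, beside 0.05 over all genes.

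CLK1 had the largest change of the set. It was at 48.2 and 57.7 TPM in KO and at 98.2 and 109 TPM in SETD2 C, so the lowest SETD2 C library was above the highest KO library. On the scaled values the log2 fold change was 0.82 ± 0.091 (SE), a fold of 1.76 with a 95% interval from 1.52 to 2.04, and the adjusted p was 0.000718 by limma. Of all genes tested, 6.27% had a larger log2 fold change. Against SETD2 FL, which was transfected as well, the log2 fold change was 0.94 (95% interval 0.73 to 1.16; adjusted p = 0.000358 by limma), and 4.04% of genes had a larger one. The call held in all 16 alternatives of each of these 2 comparisons, with log2 fold changes from 0.68 to 0.97 against KO and from 0.87 to 1.07 against SETD2 FL. As a ratio of RNA levels only, CLK1 stood at 5.13 and 5.36 TPM per 100 TPM of the 9 SRSF genes in SETD2 C, at 2.74 and 3.42 in KO and at 2.68 and 2.66 in SETD2 FL. In the KO and WT libraries of batch 1 this ratio was 1.46 to 1.68.

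SRSF1 rose with it. Its level was 188 and 164 TPM in KO, 174 and 189 in SETD2 FL and 258 and 308 in SETD2 C, where both libraries were above the other 4. The log2 fold change against KO was 0.53 ± 0.090 (SE; 95% interval 0.33 to 0.74; adjusted p = 0.0036 by limma). SRSF11, an SR-related protein that can counteract other SR proteins at splice sites, was at 271 and 262 TPM in KO, 258 and 259 in SETD2 FL and 331 and 363 in SETD2 C. Its log2 fold change against KO was 0.23 ± 0.057 (SE; 95% interval 0.10 to 0.36; adjusted p = 0.016 by limma), and this call was lost without KO replicate 4 (adjusted p = 0.0787), without SETD2 C replicate 2 (adjusted p = 0.104) and when the variance was fitted with no trend on expression (adjusted p = 0.0647). Against SETD2 FL, where the log2 fold change was 0.30, it passed in all alternatives.

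SRSF3 and SRSF7 moved the other way. SRSF3 was at 262 and 254 TPM in SETD2 C, below both KO libraries (289 and 281) and both SETD2 FL libraries (344 and 350). SRSF7 was at 192 in both SETD2 C libraries, below both KO libraries (212 and 205) and both SETD2 FL libraries (247 and 258). For both genes the order was therefore SETD2 C, then KO, then SETD2 FL, with no overlap between any of the 3 groups. The log2 fold changes against KO were -0.29 for SRSF3 (95% interval -0.40 to -0.18) and -0.26 for SRSF7 (-0.37 to -0.16), with adjusted p-values of 0.00331 and 0.00414 by limma. Against SETD2 FL they were -0.55 and -0.52 (adjusted p = 0.000229 and 0.000248). The calls against KO did not hold on TPM used without scaling, where the median over all genes was 0.18 rather than 0.05 and the values were -0.14 for SRSF3 (adjusted p = 0.07) and -0.12 for SRSF7 (adjusted p = 0.133), whereas those against SETD2 FL held in all 16 alternatives.

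**Figure D2:**
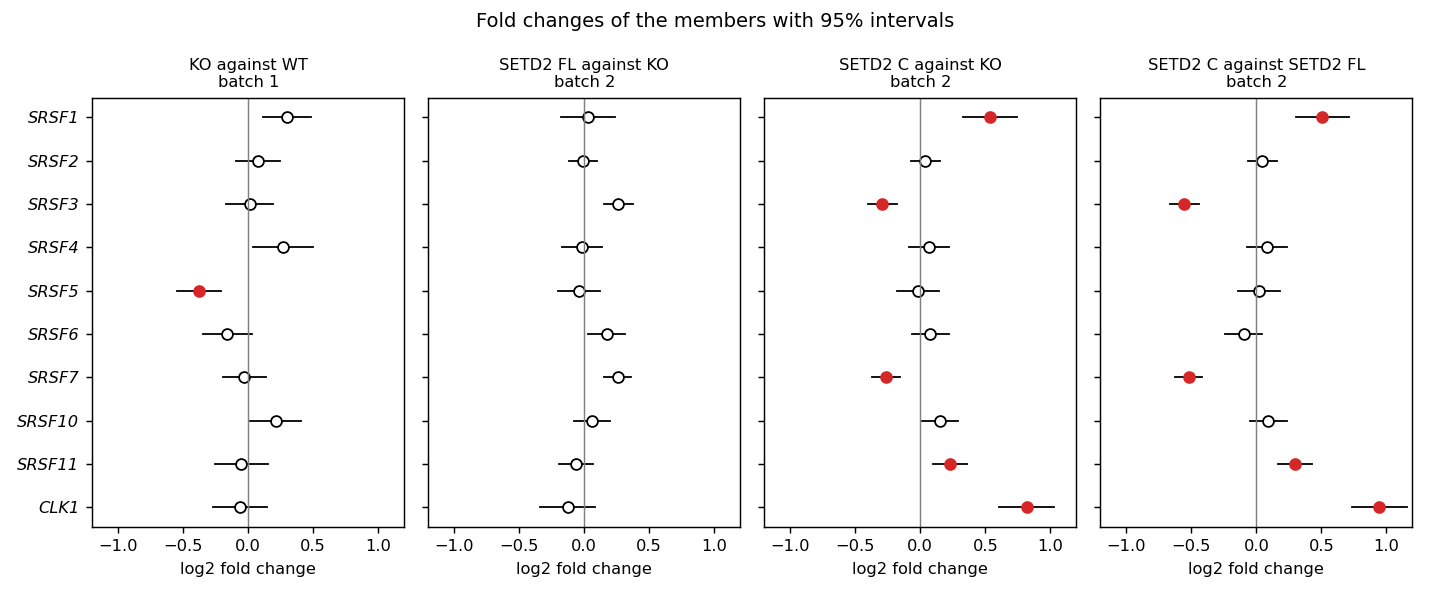
Log2 fold change of each of the 10 genes in the 4 comparisons, on the log2(scaled TPM + 0.5) scale, with 95% intervals from limma and filled points where the adjusted p was 0.05 or less. CLK1 lies at 0.82 and 0.94 in the SETD2 C comparisons and at -0.06 and -0.13 in the others, and SRSF3 and SRSF7 lie above 0 for SETD2 FL against KO and below 0 for SETD2 C.

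The other 5 genes gave no call in SETD2 C cells. SRSF5, whose call in KO against WT was lost in several alternatives, was at 315 and 278 TPM in KO and at 315 and 332 in SETD2 C. Its log2 fold change was -0.02 (95% interval -0.18 to 0.14). SRSF2, which recognises both pyrimidine- and purine-rich exonic motifs, was at 222 and 228 TPM in KO and at 254 and 258 in SETD2 C. These groups did not overlap in TPM, but after scaling the log2 fold change was 0.04 (95% interval -0.07 to 0.15). SRSF10 was at 97.1 and 94.9 TPM in KO and at 112 and 125 in SETD2 C, with a log2 fold change of 0.15 (95% interval 0.01 to 0.29) and an adjusted p of 0.0824 by limma. It passed without scaling (adjusted p = 0.00711), after quantile normalisation (0.0317), after the mitochondrial rescaling (0.0173) and without SETD2 C replicate 1 (0.0444). SRSF4 and SRSF6 had log2 fold changes of 0.07 and 0.08, with adjusted p-values of 0.463 and 0.359 by limma. Without scaling, SRSF2 (0.19) and SRSF6 (0.22) passed, each with an adjusted p of 0.026.

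In the direct comparison of SETD2 C with SETD2 FL, 3 of the 10 rose and 2 fell, among 21.4% and 16.8% of all genes, and 0 reached 2-fold, among 3.78%. The genes were again CLK1, SRSF1 and SRSF11 on one side and SRSF3 and SRSF7 on the other, but the comparisons share the SETD2 C libraries and are not independent. SRSF1 had a log2 fold change of 0.51 (adjusted p = 0.00387 by limma) and SRSF11 one of 0.30 (adjusted p = 0.00537). In the SETD2 C libraries CLK1, at 98.2 and 109 TPM, lay just under SRSF10, at 112 and 125, and above SRSF6, at 46.8 and 50.01 TPM. CLK1 reached 2-fold against SETD2 FL without scaling (log2 fold change 1.07) and without SETD2 C replicate 1 (1.01).

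**Figure D3:**
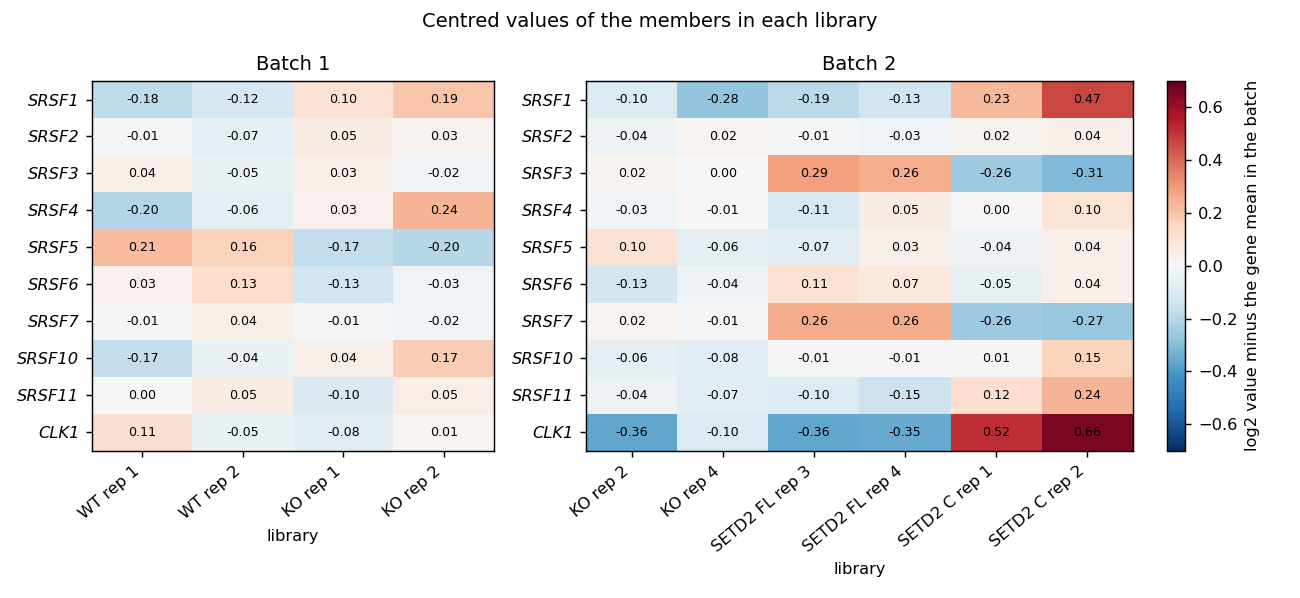
Level of each of the 10 genes in each library as log2(scaled TPM + 0.5) minus the gene's mean over its batch, with blue below and red above the mean and the value printed in each cell. In batch 2, SRSF3 and SRSF7 have nearly the same row, while CLK1, SRSF1 and SRSF11 are highest in both SETD2 C libraries.

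Profiles over the 6 libraries of batch 2 were compared by the root mean square difference of the centred log2 values, as a description, since all genes come from the same libraries. Of the 45 pairs among the 10 genes, SRSF3 and SRSF7 were the closest, at 0.0209, and the next pair, SRSF2 and SRSF4, was at 0.0594, with a median over pairs of 0.228. The farthest were SRSF3 and CLK1, at 0.643, and SRSF7 and CLK1, at 0.629. Among 8087 genes with a mean of at least 10 TPM, those most like CLK1 by this measure were ADAMTS1 (0.0447), a secreted protease, C4orf3 (0.0494), AK4 (0.0581), a mitochondrial adenylate kinase, AL451165.2 (0.0684) and PRKRA-AS1 (0.0695). ADAMTS1, for example, was at 127 and 150 TPM in KO, 134 and 131 in SETD2 FL and 275 and 289 in SETD2 C. None of the 5 is an SR gene or an SR kinase. The same 5 were nearest without scaling, and SLIT2 took the place of AL451165.2 after quantile normalisation.

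The promoters of the pair that moved together and of CLK1 are given for comparison, from the RefSeq promoter table (GRCh38.p14), which holds a window for 9 of the 10 genes and none for SRSF2. Each sequence is the 250 bases before the start site on the gene's strand, from chr6:36594112-36594361 (SRSF3, plus), chr2:38751495-38751744 (SRSF7, minus) and chr2:200864659-200864908 (CLK1, minus). Capitals mark matches, on either strand, to a CCAAT box (CCAAT), a GC box (GGGCGG) or a TATA box (TATAAA).
SRSF3 promoter: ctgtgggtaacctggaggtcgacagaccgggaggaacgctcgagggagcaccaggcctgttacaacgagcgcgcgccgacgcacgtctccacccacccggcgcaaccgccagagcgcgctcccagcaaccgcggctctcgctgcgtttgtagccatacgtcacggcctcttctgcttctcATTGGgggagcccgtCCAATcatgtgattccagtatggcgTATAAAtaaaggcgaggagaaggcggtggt
SRSF7 promoter: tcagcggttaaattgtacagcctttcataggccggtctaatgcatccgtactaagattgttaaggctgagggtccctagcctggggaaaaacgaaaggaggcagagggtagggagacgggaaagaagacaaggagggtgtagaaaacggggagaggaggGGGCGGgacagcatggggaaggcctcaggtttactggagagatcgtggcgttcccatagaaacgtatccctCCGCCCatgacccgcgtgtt
CLK1 promoter: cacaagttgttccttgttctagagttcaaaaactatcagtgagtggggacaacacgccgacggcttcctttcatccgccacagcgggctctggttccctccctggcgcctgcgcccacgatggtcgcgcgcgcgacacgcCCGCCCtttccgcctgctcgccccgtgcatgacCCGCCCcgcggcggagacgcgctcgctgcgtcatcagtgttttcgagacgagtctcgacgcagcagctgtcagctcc
The SRSF3 window has CCAAT boxes in both orientations and a TATA box, and the SRSF7 and CLK1 windows have GC boxes only, so none of these motifs is shared by SRSF3 and SRSF7. Over all 35116 windows, a CCAAT box occurred in 34.6%, a GC box in 45% and a TATA box in 11.5%, and over the 9 genes in 1, 5 and 2, counted over whole windows of 300 bases, with the first listed where a gene has more than 1. CACGTG, TGACGTCA and GAANNTTC, searched likewise, were in none of the 9 windows and in 7.26%, 1.85% and 6.77% of all, and CCGGAAG was in 2 of the 9 and in 10.3% of all. These are letter matches and not binding sites.

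Related genes were followed by list, beginning with the enzymes that set SR phosphorylation. Of 12 kinases, phosphatases and the importin TNPO3, 3 rose and 2 fell in SETD2 C against KO, 3 rose and 1 fell against SETD2 FL, none passed for SETD2 FL against KO, and 1 of 11 tested fell in KO against WT. Beside the shares of all genes in the SETD2 C comparisons (21.1% higher and 15.1% lower against KO, 21.4% and 16.8% against SETD2 FL), these counts are near the background. The 2 with the largest log2 fold changes against KO were SRPK3 and CLK4. CLK4, the closest relative of CLK1, was at 15.4 and 17.1 TPM in KO, 14.6 and 16.8 in SETD2 FL and 29.4 and 31.7 in SETD2 C. Its log2 fold change against KO was 0.75 (adjusted p = 0.000791 by limma), near that of CLK1. SRPK3, a muscle kinase, was at 0.05 and 0 TPM in KO and at 0.26 and 0.91 in SETD2 C. Its log2 fold change of 0.93 ± 0.44 (SE) did not pass (adjusted p = 0.13 by limma).

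The remaining CLK genes were examined after their values had been seen. CLK3 was at 69.8 and 69.2 TPM in KO, 59.6 and 67.0 in SETD2 FL and 104 and 103 in SETD2 C, and rose by 0.43 on the log2 scale against KO (adjusted p = 0.00136 by limma). CLK2 was at 75.7 and 75.3 TPM in KO and at 82.6 and 84.9 in SETD2 C, with a log2 fold change of 0.00 (95% interval -0.13 to 0.13). In batch 1, however, CLK2 was the gene of this list that fell in the knockout, from 99.2 and 115 TPM in WT to 84.0 and 81.3 in KO (log2 fold change -0.50, adjusted p = 0.0141 by limma). Also named after seeing the values, SRPK1, the main cytoplasmic SR kinase, and PPP1CA, a catalytic subunit of the phosphatase PP1, fell against KO by 0.22 and 0.41 on the log2 scale (adjusted p = 0.0187 and 0.00236 by limma), whereas PPP1CB, another such subunit, rose by 0.22 (adjusted p = 0.0185). CLK3, CLK4 and PPP1CA passed in every alternative tried. The calls on SRPK1 and PPP1CB were lost without KO replicate 2 (adjusted p = 0.105 for each), SETD2 C replicate 1 (0.0911 and 0.0712) and SETD2 C replicate 2 (0.0604 and 0.084), and with no variance trend (0.0603 and 0.056). SRPK1 did not pass either without scaling (-0.07, adjusted p = 0.423) or after the mitochondrial rescaling (-0.12, adjusted p = 0.146). The CLK2 call in batch 1 was lost without KO replicate 1 (0.0776), KO replicate 2 (0.109), scaling (-0.37, adjusted p = 0.164) or the variance trend (0.0541), and with the filter widened to genes above 0 TPM in any library (0.0563).

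Among the 5 SR proteins outside the set, 1 rose in SETD2 C against KO and 1 against SETD2 FL: SRSF12, at 9.17 and 8.57 TPM in KO and 13.2 and 12.7 in SETD2 C (log2 fold change 0.38, adjusted p = 0.0179 by limma), a call lost without KO replicate 4 or either SETD2 C library (adjusted p = 0.0561 to 0.0823). Against SETD2 FL its log2 fold change was 0.32, and the call was lost without SETD2 FL replicate 3 (0.20, adjusted p = 0.178), without SETD2 C replicate 1 (0.13) or 2 (0.0858), after quantile normalisation (0.0658), with the wider filter (0.0764) and with no variance trend (0.0565). TRA2A had the next largest value, 0.06 (adjusted p = 0.375), and passed only without scaling (0.21, adjusted p = 0.0207) and after the mitochondrial rescaling (0.16, adjusted p = 0.0487). Of 26 SR-related proteins, 9 rose and 3 fell against KO and 7 rose and 3 fell against SETD2 FL, where 21.1% and 15.1% of all genes, and 21.4% and 16.8%, did so. LUC7L3, a protein linked to the U1 particle, rose from 239 and 207 TPM in KO to 323 and 385 in SETD2 C (log2 fold change 0.52, adjusted p = 0.00482 by limma), and NKTR, a cyclophilin with an RS domain, from 24.2 and 20.5 TPM to 31.7 and 32.5 (log2 fold change 0.37, adjusted p = 0.0445). LUC7L3 passed in every alternative tried, while NKTR did not without KO replicate 4 (adjusted p = 0.209), SETD2 C replicate 1 (0.114) or SETD2 C replicate 2 (0.152), with the wider filter (0.123), with all gene types (0.0698) or with no variance trend (0.0996). The count of 9 against KO and the count of 7 against SETD2 FL each fell when some single libraries were left out. The share of all genes called in those fits is not given here, so the falls are not a result about this list. None of the genes of these 2 lists passed in KO against WT or in SETD2 FL against KO.

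Of 28 core spliceosome genes, 0 rose and 7 fell in SETD2 C against KO, and 0 rose and 9 fell against SETD2 FL, beside 21.1% of all genes higher and 15.1% lower against KO and 21.4% and 16.8% against SETD2 FL. At an unadjusted p of 0.05 or less the counts were 0 and 12 in each. The share of all genes at that unadjusted threshold was not computed, so these counts have no background beside them. The median log2 fold change of the list was -0.11 against KO and -0.12 against SETD2 FL, beside 0.05 and 0.04 over all genes. The counts depend on the scaling. Without it, 3 rose and 1 fell against KO and 3 rose and 3 fell against SETD2 FL. The median over all genes was then higher, and the share of all genes called without scaling is not given here. How the unscaled counts compare with all genes thus cannot be read from them. The counts lower also changed when some single libraries were left out. SF3B5, a small subunit of the U2 particle, was at 227 and 220 TPM in KO and at 197 and 171 in SETD2 C (log2 fold change -0.43, adjusted p = 0.00318 by limma). PRPF8, the core protein of the U5 particle, was at 232 and 215 TPM in KO and at 209 and 185 in SETD2 C (log2 fold change -0.33, adjusted p = 0.0243), and its groups did not overlap, but the call was lost without KO replicate 2 (adjusted p = 0.105), without SETD2 C replicate 2 (0.143), without scaling (0.101), after quantile normalisation (0.0702) or the mitochondrial rescaling (0.069), with the wider filter (0.0826) and with no variance trend (0.0764). SF3B5 passed against KO in every alternative tried. No core gene passed in the other 2 comparisons.

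Of 10 NMD factors, which remove the poison-exon RNAs, 1 rose and 1 fell in SETD2 C against KO, no more than the 21.1% and 15.1% of all genes. SMG8, a regulator of the NMD kinase SMG1, was at 15.2 and 16.0 TPM in KO, 18.5 and 18.7 in SETD2 FL and 13.5 and 11.8 in SETD2 C (log2 fold change against KO -0.44, adjusted p = 0.00617 by limma). UPF3B, a component of the exon junction branch of NMD, rose from 76.7 and 70.4 TPM to 95.3 and 105 (log2 fold change 0.29, adjusted p = 0.0124), a call lost without KO replicate 4 (0.0716) and SETD2 C replicate 2 (0.0813). SMG8 was also the NMD factor that passed in batch 1, where it was higher in KO, at 17.9 and 18.1 TPM, than in WT, at 9.48 and 13.4 TPM (log2 fold change 0.52, adjusted p = 0.0467 by limma), which did not hold without WT replicate 1 (0.105), KO replicate 1 (0.138) or KO replicate 2 (0.215), with the wider filter (0.144), with all gene types (0.0741) or with no variance trend (0.0939). Against SETD2 FL, 1 NMD factor rose and 1 fell in SETD2 C, beside 21.4% and 16.8% of all genes. These were UPF3B (log2 fold change 0.335, adjusted p = 0.006451 by limma) and SMG8 (-0.667, adjusted p = 0.001015). No gene of these 5 lists reached 2-fold with an adjusted p of 0.05 or less in any comparison.

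**Figure D4:**
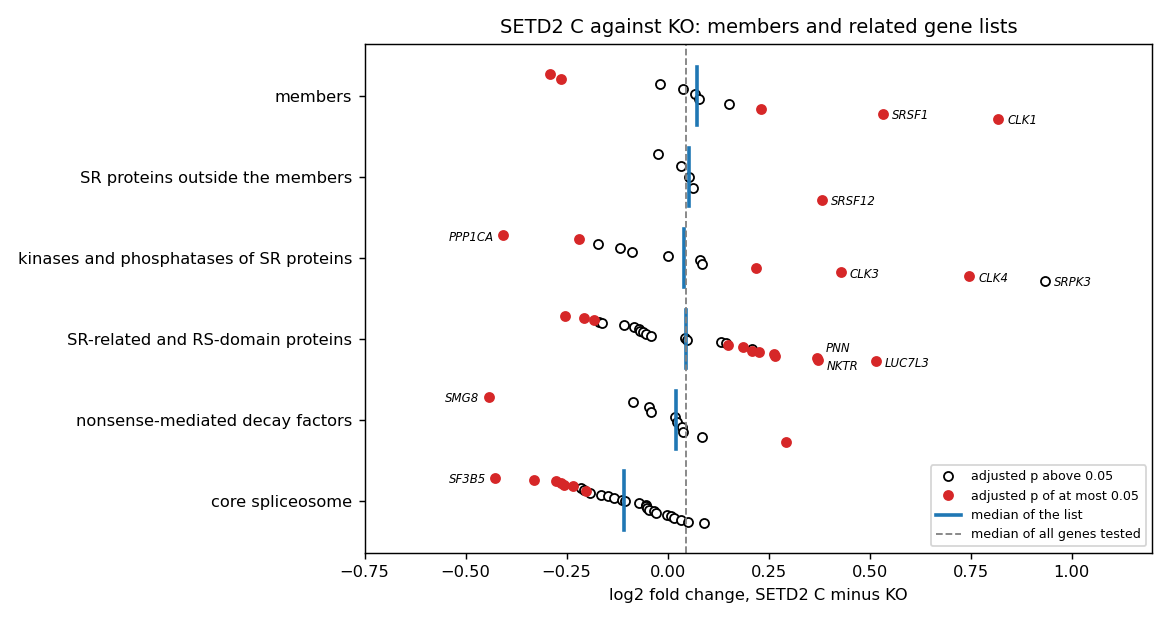
Log2 fold change of SETD2 C against KO for each gene of the 5 related lists and of the 10 genes, 1 point per gene, filled where the adjusted p was 0.05 or less, with a line at the median of each list and at 0.05, the median of all genes. Core spliceosome genes lie mostly below 0 with a median of -0.11, and CLK1 and CLK4 lie at 0.82 and 0.75.

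Some of these RNAs share sequence with other annotated genes, which the counting could have split. SRSF2 shares 823 exonic bases with MFSD11 on the opposite strand, which was at 7.38 to 17.8 TPM, and whether the counting used strand is not given in the sources used here. Pseudogenes named after SRSF1 and SRSF10 were listed at 0.07 TPM or less in all libraries.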

How the data were processed

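RNA-seq libraries were made from HEK293T cells. The authors aligned reads to hg38 with Ensembl 96 gene models and estimated transcript abundance with RSEM 1.3.0 (STAR 2.6.1c is also named in the submitters' processing notes), and deposited 1 table of TPM per gene for each batch, without normalization between libraries. TPM sums to the same total in every library, so the depth and counting error are unknown. From these values, each table was scaled by the median ratio over genes at 1 TPM or more in every library of it (12631 and 12928 genes). Protein-coding and lncRNA genes of GENCODE 44 at 0.5 TPM or more in at least 2 libraries were kept, and log2(scaled TPM + 0.5) was tested with limma 3.58.1 (R 4.3.3, eBayes with trend) within each batch, with Benjamini-Hochberg adjustment over all genes tested. A gene rose or fell where the adjusted p was 0.05 or less. The pseudocount slightly understates changes of low genes. All 10 genes passed the filter. The script was tested on simulated data, in which far fewer genes were changed than passed in SETD2 C against KO. That test therefore does not bear on the scaling in that comparison.

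The 10 genes and the gene lists were chosen with earlier results of these data known. Beside the 10 genes and SETD2, the text names the genes of each list past an adjusted p of 0.05 and a fold of 2 in any comparison, otherwise the 2 with the largest change of SETD2 C against KO, and the 5 profiles most like CLK1. Exceptions are marked. Tables were compared within a batch only. Alternatives were the pseudocount (0.1 and 1), filters, scaling, gene types, TPM recomputed without mitochondrial genes and SETD2, the variance trend, fits of only the groups compared, a replicate block, and leaving out each library. The 14 ChIP-seq samples were not used here.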

Additional observations from a re-analysis of the deposited data

How the results depend on the processing

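Of 620 recomputed log2 fold changes of the 10 genes, 597 stayed on their side of the threshold, 12 fell short of it, 11 passed it and 0 called values turned direction. Of 1215 for the other named genes, these counts were 1145, 61, 9 and 0. On TPM without scaling, 1 of the 10 genes was higher and 0 were lower in KO against WT. In SETD2 C against KO, 6 were higher and 0 lower. In SETD2 C against SETD2 FL, 5 were higher, and SRSF3 and SRSF7 remained lower. The medians over all genes without scaling were 0.11, 0.18 and 0.16 in these comparisons. No count of called genes in this paragraph is set beside the share of all genes called under the same setting. Such counts are therefore not read as results about the genes. The count of 1 lower in KO against WT, which is SRSF5, became 0 with genes above 0 TPM in at least 1 library kept, with all gene types kept and with no variance trend, where more genes were tested in the first 2 of these. Leaving out 1 library, it ranged from 0 to 1, and the count higher in SETD2 C against KO from 2 to 4. With TPM recomputed without mitochondrial genes and SETD2, 2 genes were higher in SETD2 FL against KO. Without scaling 3 core spliceosome genes were higher and 1 lower in SETD2 C against KO, where 0 and 7 were before. The causes were not tested.

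WT and KO of batch 1 share replicate numbers 1 and 2, which the labels tie to no shared culture or day, and deviations of same-numbered libraries correlated at 0.147. With the replicate number as a block, SRSF5 was at -0.38 (adjusted p = 0.029 by limma), and the calls on the 10 genes did not change. Over the whole table, the genes lower then numbered 827 rather than 467, and the genes higher 442 rather than 194. The groups of batch 2 share fewer than 2 numbers. TPM without counts gives no counting error, and 2 libraries a group limit the precision throughout.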
